A study of Homo sapiens with 16 samples.

Results

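The expression of 4 leukemia lines that carry a fusion of the MLL gene (KMT2A in current nomenclature) was compared with that of 4 blood cancer lines labelled with other lesions. The members were chosen by line name: 8 of the 16 libraries in the series came from MLL-fusion lines and 8 from the other lines, so every library was used. MOLM13 and THP1 are labelled MLL-AF9, RS4-11 is labelled MLL-AF4 and KOPN8 is labelled MLL-ENL. Among the other lines, K562 is labelled BCR-ABL, RAJI is labelled as Burkitt's lymphoma, JURKAT as a T cell leukemia that depends on Myc, and P493-6 as a Burkitt's lymphoma model. Per line there was 1 library with the 3R peptide, which does not bind DPY30, and 1 with the Y518R peptide, which does, so no library was free of peptide and the baseline here is the mean over both peptides. The line was the replicate (n = 4 per class). All are established lines, and the MLL-AF4 and MLL-ENL fusions are each represented by a single line.

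MLL is a histone H3 lysine methyltransferase that maintains the expression of HOX genes during blood development. In leukemia, chromosome translocations join its amino-terminal part, which keeps a CXXC domain that binds unmethylated CpG DNA, to partners such as AF9, AF4 or ENL that belong to complexes of transcription elongation and recruit the methyltransferase DOT1L. HOXA9, its cofactor MEIS1 and the receptor tyrosine kinase FLT3 are the best known genes with high expression in such leukemias. DPY30, the target of the binding peptide, belongs to the core shared by all SET1/MLL methyltransferase complexes.

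Libraries held 19354300 to 43003124 gene counts. Levels are given as CPM, in which TMM factors put the counts of all libraries on the same scale, averaged over the 2 libraries of a line. Levels of different genes are not compared because CPM does not correct for gene length. Reads assigned to no gene made up 44.7% in the RAJI 3R library and 17.7% to 26.9% in the other libraries. The 2 libraries of a line were far more alike (Spearman correlation across genes of 0.969 to 0.981) than libraries of different lines (at most 0.925). The mean correlation between lines was 0.882 within a class and 0.869 between classes. By this measure MOLM13 was nearest to THP1, RS4-11 to KOPN8 and RAJI to P493-6, whereas JURKAT was nearest to KOPN8, a line of the other class.

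The lines of a class did not share a lineage. Summed over 5 monocytic markers (LYZ, MPO, CD33, CSF1R and CD14), MOLM13 and THP1 reached 661 and 841 CPM, against 0.559 to 50.8 in the 6 other lines. CD79A, a B cell receptor chain, was at 447 CPM in RS4-11, 537 in KOPN8, 554 in RAJI and 418 in P493-6, against at most 18.4 elsewhere. VPREB1, a surrogate light chain gene of precursor B cells, was at 244 CPM in RS4-11 and 478 in KOPN8 and at most 1.83 in any other line. Other markers of the precursor B set were less specific. IGLL1 was at 537 CPM in RS4-11, 591 in KOPN8 and 34.7 in JURKAT. RAG1 was at 194.5, 10.1 and 85.1 CPM in these lines. DNTT went the other way, at 4.29, 0.086 and 441 CPM. The erythroid transcription factor GATA1 was at 302 CPM in K562 and at most 0.243 elsewhere, and the T cell markers CD3D, CD3E, CD2 and LCK summed to 1589 CPM in JURKAT. No other line was monocytic. Only JURKAT, labelled as a T cell leukemia, held much of the precursor B set among the other lines. No MLL-fusion line was erythroid, T or mature B. For a gene that follows such a lineage, the fusion and the lineage cannot be told apart.

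In edgeR's quasi-likelihood test of line sums with Benjamini-Hochberg adjustment, 6 of 13909 genes rose in the MLL-fusion lines at an adjusted p under 0.05 (0.0431%), and 0 fell (0%). These were IGFBP7, NLRP3, FLT3, HOXA10, HRH2 and HOXA9. At an unadjusted p under 0.05, 790 genes were higher (5.68%) and 658 lower (4.73%). DESeq2's Wald test called 387 genes higher (2.9% of the 13333 genes with an adjusted p) and 222 lower (1.67%), and limma-voom on the 16 libraries called 15 and 4. All 4 MLL-fusion lines lay above all 4 other lines for 585 genes (4.21%) and below them for 455 (3.27%). The median log2 difference over all tested genes was -0.01.

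**Figure D1:**
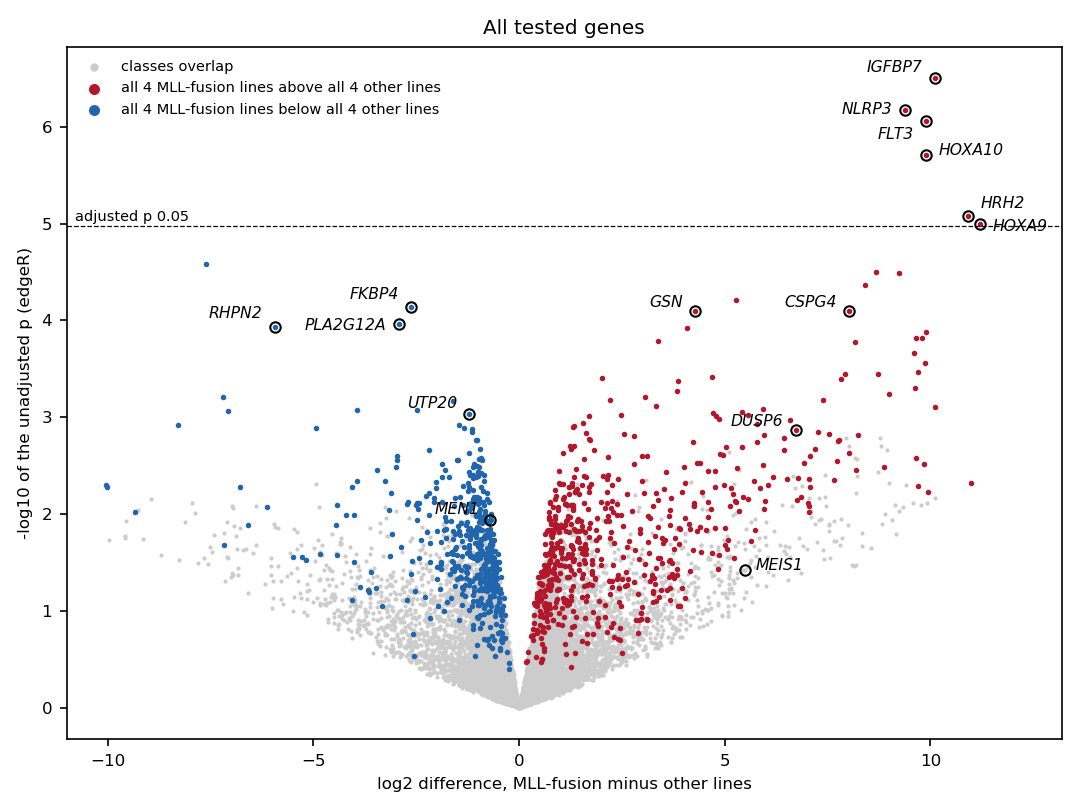
Log2 difference (x axis, MLL-fusion minus other lines) against -log10 of the unadjusted edgeR p (y axis) for the tested genes. Coloured points are genes whose 4 lines per class do not overlap, and the 6 genes above the dashed line (adjusted p 0.05) are all on the higher side.

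The promoters of 3 called genes are shown because the CXXC domain kept in MLL fusions binds CpG-rich DNA. These 3 span the range of CG content among the 5 called genes with a matched promoter, which leave out IGFBP7. The sequences are the 250 bases before the RefSeq gene start (GRCh38.p14), read 5′ to 3′ on the gene's strand, with each CG dinucleotide in capitals. HOXA9 lies at chr7:27165538-27165787 (minus strand) and holds 20 CG, FLT3 at chr13:28100577-28100826 (minus strand) holds 26, and NLRP3 at chr1:247415923-247416172 (plus strand) holds 3.
HOXA9: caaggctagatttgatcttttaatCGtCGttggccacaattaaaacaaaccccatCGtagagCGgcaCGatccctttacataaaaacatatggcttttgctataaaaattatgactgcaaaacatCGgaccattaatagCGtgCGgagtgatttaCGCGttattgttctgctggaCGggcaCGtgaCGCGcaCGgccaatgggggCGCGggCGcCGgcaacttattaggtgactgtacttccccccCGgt
FLT3: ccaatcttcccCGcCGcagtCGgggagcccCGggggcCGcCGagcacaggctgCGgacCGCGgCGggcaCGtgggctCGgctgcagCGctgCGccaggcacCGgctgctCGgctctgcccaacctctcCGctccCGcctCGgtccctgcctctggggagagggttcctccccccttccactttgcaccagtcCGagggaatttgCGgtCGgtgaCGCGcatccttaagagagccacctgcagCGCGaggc
NLRP3: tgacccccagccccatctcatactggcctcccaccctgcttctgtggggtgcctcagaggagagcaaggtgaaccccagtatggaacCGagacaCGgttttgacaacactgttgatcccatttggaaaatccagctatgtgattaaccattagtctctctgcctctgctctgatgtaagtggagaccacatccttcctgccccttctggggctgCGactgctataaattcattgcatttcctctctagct
Matching by symbol found 5 of the 6 called genes. HRH2 held 20 CG, and HOXA10, which has 2 listed starts, held 19 and 24. Over all 35116 promoters of the table the median was 11 CG (quartiles 3 and 23), and 93.9% held at least 1. At least as many CG as HOXA9 were held by 32.4% of promoters, as many as FLT3 by 19.6% and as many as NLRP3 by 77.1%. CG reads the same on both strands, and these counts describe the letters only.

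HOXA9 and HOXA10 encode homeobox transcription factors of the HOXA cluster, and HOXA9 was one of 3 markers used to check the line labels. HOXA9 reached 49.2 CPM in KOPN8, 23.1 in MOLM13, 19.9 in RS4-11 and 11.5 in THP1. The 8 libraries of the other lines held 2 HOXA9 counts in all, against 5958 in the 8 MLL-fusion libraries, a ratio of 2569 with an exact 95% counting interval of 711 to 21220. HOXA10 reached 391 CPM in KOPN8, 130 in MOLM13, 89.0 in RS4-11 and 83.6 in THP1, and was at 0.104 to 0.221 in the other lines (log2 difference 9.88 ± 0.81 SE, adjusted p = 0.0068). For both genes KOPN8 was highest and THP1 lowest among the MLL-fusion lines, and every MLL-fusion library lay above every other library. HOXA9 passed the count filter only through the MLL-fusion lines, and its fitted log2 difference of 11.21 (SE 1.16, adjusted p = 0.024) depends on the prior count. The readthrough symbol HOXA10-HOXA9 was at 0 in all libraries, and reads shared by several symbols were given to none, so the levels of HOXA9 and HOXA10 are uncertain by that much.

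FLT3, the receptor of an early progenitor growth factor and itself often mutated in leukemia, was at 536 CPM in MOLM13, 369 in KOPN8, 242 in RS4-11 and 85.6 in THP1. The other lines were at 0.242 to 0.370 CPM, and the highest of their 8 libraries at 0.680 against a lowest MLL-fusion library of 64.9 (log2 difference 9.90 ± 0.73 SE, adjusted p = 0.0040). IGFBP7, a secreted protein of the insulin-like growth factor binding family, was at 52.7, 118, 147 and 153 CPM in MOLM13, THP1, RS4-11 and KOPN8, and at 0.068 to 0.174 in the other lines (10.11 ± 0.66, adjusted p = 0.0040). The order of the MLL-fusion lines thus differed by gene: MOLM13 was highest for FLT3 and lowest for IGFBP7.

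NLRP3 encodes the sensor of an inflammasome that matures interleukin-1, best known from monocytes. It was at 130 CPM in MOLM13 and 118 in THP1, but also at 104 in the precursor B line RS4-11 and 28.6 in KOPN8, against 0.105 to 0.207 in the other lines (log2 difference 9.38 ± 0.68 SE, adjusted p = 0.0040). HRH2, the H2 histamine receptor, was at 18.5, 17.4, 16.5 and 33.4 CPM in MOLM13, THP1, RS4-11 and KOPN8. The 8 other libraries held 2 HRH2 counts against 5006, a ratio of 2159 (exact 95% counting interval 597 to 17830). Its fitted difference of 10.91 ± 1.10 (edgeR adjusted p = 0.023) likewise depends on the prior count. HRH2 too passed the count filter only through the MLL-fusion lines, as did IGFBP7, NLRP3 and HOXA10. Neither NLRP3 nor HRH2 followed the split between monocytic and precursor B lines in its presence, although KOPN8 stood apart from the other 3 MLL-fusion lines for both.

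**Figure D2:**
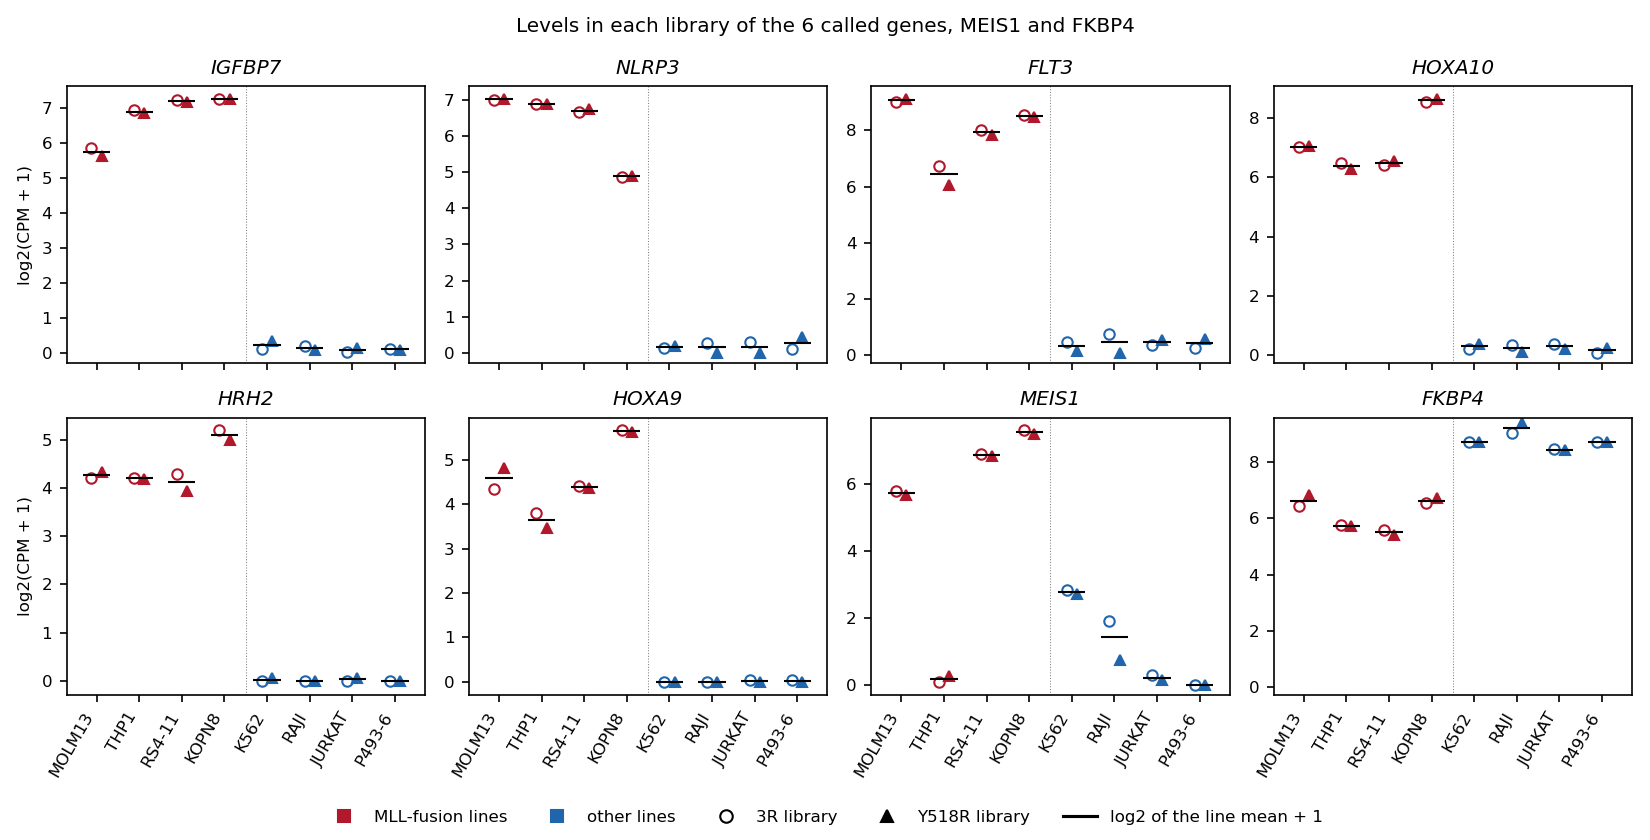
Level in each library as log2(CPM + 1) for the 6 called genes, for the marker MEIS1 and for FKBP4, the gene with the lowest p among named genes on the lower side. Circles are 3R libraries, triangles Y518R libraries and bars line means; MEIS1 is near 0 in THP1 (0.130 CPM).

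With lineage (myeloid or lymphoid, from general knowledge of the lines) as a covariate, edgeR called 9 genes higher (0.0647%), among them all 6, and 1 lower (0.00719%). The additional genes were ARSD, NOG and VAT1L on the higher side and KCNH2 on the lower side. This covariate puts K562 with MOLM13 and THP1, and JURKAT, RAJI and P493-6 with RS4-11 and KOPN8. It therefore does not adjust for monocytic against erythroid, or for precursor B against mature B or T. In the B-lineage lines alone, 2 against 2, edgeR called none (759 genes were higher and 640 lower at an unadjusted p under 0.05), while FLT3 differed by 9.78 and IGFBP7 by 10.7 on the log2 scale (adjusted p = 0.10 for both). The calls also depended on which line was left out, on the libraries and on the method. Without JURKAT only IGFBP7 was called, and the adjusted p of the other 5 genes ran from 0.0576 to 0.0696. In limma-voom FLT3, NLRP3 and HOXA10 were not called (adjusted p = 0.127, 0.160 and 0.0919). From Y518R libraries alone edgeR called neither FLT3 and HRH2 (0.0578 for both) nor NLRP3 and HOXA9 (0.107 for both), and from 3R libraries alone it did not call HRH2 (0.0588). HOXA9 lost its call when any line but K562 was left out (adjusted p = 0.0539 to 0.134) and HRH2 when any MLL-fusion line, RAJI or JURKAT was left out (0.0643 to 0.132). The log2 difference of HOXA9 was 10.7 to 11.7 and that of HRH2 10.6 to 11.2 in those fits. From 3R libraries alone they were 10.2 and 12.4, and from Y518R libraries alone 12.5 and 9.81. In the B-lineage lines they were 11.5 and 13.5. These values depend on the prior count, so their likeness between fits adds no support.

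Several genes next in rank were also higher in all 4 MLL-fusion lines and missed the threshold. ARSD, the carboxypeptidase M gene, ATP8B4, CSPG4, CCL28 and VAT1L passed the count filter only through the MLL-fusion lines. GSN, SSH3 (0.554 to 2.185 CPM) and SLC27A3 (0.874 to 2.99) were also expressed in the other lines, so they differed in degree. ARSD, a sulfatase family gene, was at 48.4, 94.3, 71.8 and 57.7 CPM in MOLM13, THP1, RS4-11 and KOPN8 and at 0.0245 to 0.423 in the other lines (log2 difference 8.68, adjusted p = 0.05003). The carboxypeptidase M gene, whose symbol is also the abbreviation of the unit, reached the same adjusted p with 51.8, 164, 14.3 and 21.8 against at most 0.175. ATP8B4, a phospholipid flippase gene, was at 39.8 to 209 CPM against 0.0988 to 0.702 (adjusted p = 0.060). CSPG4, which encodes the NG2 proteoglycan used in the clinic as a surface marker of MLL-rearranged leukemia, was at 99.5, 78.0, 143 and 156 CPM against 0.049 to 1.25 (8.03 ± 1.09, adjusted p = 0.080). GSN, the actin-severing protein gelsolin, was at 120 to 487 CPM against 7.19 to 13.6 (4.29 ± 0.58, adjusted p = 0.080), with THP1 highest. The remaining genes among the 15 with the lowest p on this side were SSH3, SLC27A3, CCL28 and VAT1L, with log2 differences of 5.29, 4.07, 9.89 and 9.80 and adjusted p of 0.0776 to 0.105.

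All 11 HOXA genes were tested and all 11 had a positive log2 difference, with a median of 4.83, against -0.01 over all genes. HOXA10 and HOXA9 rose, and HOXA4 and HOXA11 also lay above the other class in all 4 MLL-fusion lines. This makes 4 of 11 genes without overlap (background 4.21%). HOXA9, HOXA10 and HOXA11 passed the count filter only through the MLL-fusion lines, so this count adds no support. This list and those below were chosen with earlier results of these data known. The cluster was not uniform within the class. HOXA11 was at 51.9 CPM in MOLM13, 39.2 in THP1 and 118 in KOPN8 but at 0.207 in RS4-11, against at most 0.0739 in the other lines (edgeR adjusted p = 0.215). The RS4-11 value is near the level of 3 counts in a library (0.070 to 0.155 CPM). HOXA13, at the end of the cluster, was at 24.4 CPM in MOLM13 and 22.3 in THP1, the MLL-AF9 lines, and at 0.042 in RS4-11 and 0.567 in KOPN8. THP1 was the lowest MLL-fusion line for HOXA2 to HOXA7, with HOXA5 at 2.44 CPM and HOXA7 at 0.261. JURKAT exceeded THP1 for both, with HOXA5 at 10.6 CPM and HOXA7 at 4.71. HOXA5 was also at 2.37 CPM in RAJI, and K562 and P493-6 were below 0.1 CPM for each of the 11 genes except HOXA10 (0.211 and 0.104). Summed over the cluster, the MLL-fusion lines held 159 to 840 CPM and the other lines 0.350 to 25.5.

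MEIS1, the third marker, did not separate the classes. It was at 51.9 CPM in MOLM13, 115 in RS4-11 and 185 in KOPN8, but at 0.130 in THP1, below K562 (5.86), RAJI (1.70) and JURKAT (0.166). Its log2 difference was 5.5 ± 2.21 SE with an adjusted p of 0.459 in edgeR, 0.038 in DESeq2 and 0.762 in limma-voom. Of the other TALE homeobox genes, which encode partners of HOX proteins, PBX3 was at 143, 283, 214 and 190 CPM in MOLM13, THP1, RS4-11 and KOPN8 and at 1.70, 26.6, 26.4 and 91.2 in K562, RAJI, JURKAT and P493-6. PBX3 was the only TALE gene whose classes did not overlap (1 of 9 tested, against 4.21% of all genes; 2.52 ± 0.94, adjusted p = 0.436). MEIS2 was at 71.3 CPM in MOLM13 and 0.0163 in KOPN8, and MEIS3 at 18.7 CPM in KOPN8 and at most 0.447 elsewhere. PKNOX1 and TGIF2 were detected in all 8 lines, at 17.5 to 59.0 and 24.1 to 85.3 CPM.

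**Figure D3:**
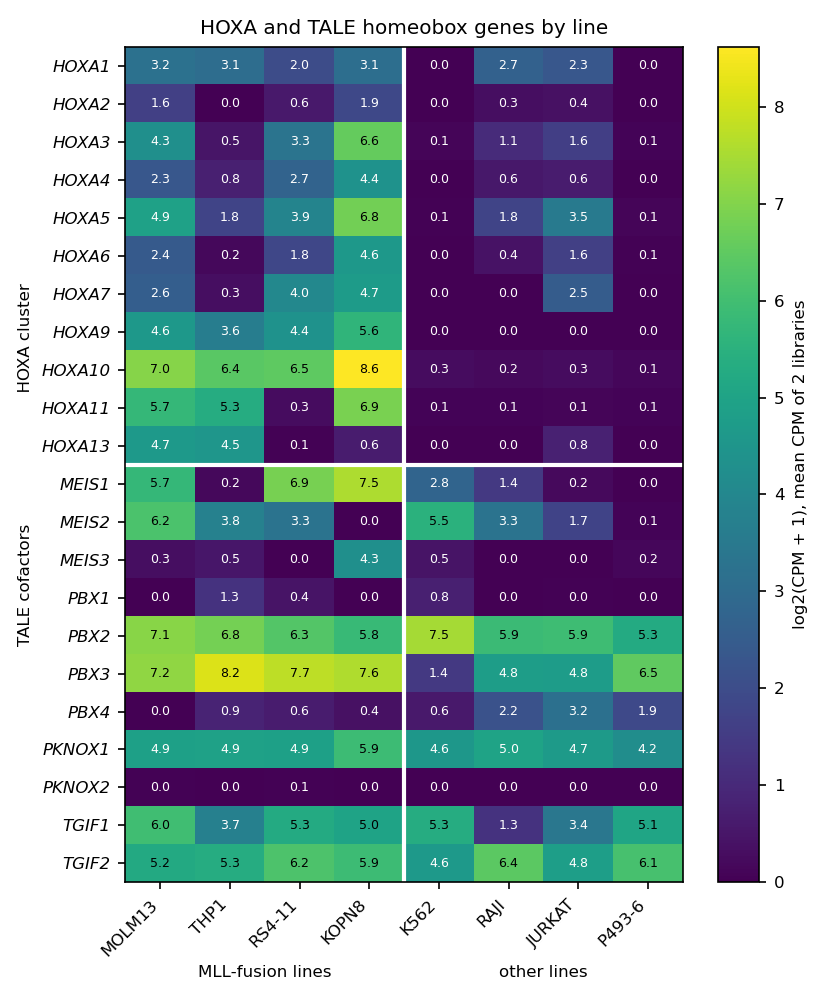
Level of each HOXA cluster gene (upper block) and TALE cofactor (lower block) in each line, as log2(CPM + 1) of the mean of 2 libraries. HOXA9 and HOXA10 are present in all 4 MLL-fusion lines, whereas HOXA11 is low in RS4-11 and MEIS1 in THP1.

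The HOXB genes, the paralogous cluster, ran the other way in their values. Of 10 genes, 3 passed the count filter (HOXB3, HOXB4 and HOXB7, log2 differences -3.67 to -5.15, adjusted p = 0.501 to 0.562), and those not tested were below 1 CPM in at least 6 of the 8 lines. K562 held most of the signal: its summed HOXB level was 518.2 CPM, with HOXB9 at 314, against 0.852 to 56.2 in RAJI, JURKAT and P493-6 and 0.0576 to 9.66 in the MLL-fusion lines.

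Of 30 genes outside HOX that were listed as MLL-fusion targets or markers, 29 were in the files and 25 were tested. FLT3 rose. RUNX2, CPEB2, LGALS1, CSPG4 and CCNA1 were above the other lines in all 4 MLL-fusion lines without passing edgeR's adjusted threshold, so 6 of 25 were free of overlap on the higher side (background 4.21%) and 0 on the lower side (background 3.27%). DESeq2 called all 6 higher (background 2.9%), with an adjusted p of 0.0226 for LGALS1 as the highest. CSPG4 and CCNA1 passed the count filter only through the MLL-fusion lines. As the list was chosen with earlier results of these data known, its counts beside the background add no support. The median log2 difference of the 25 was 1.8, with 24 above 0. CPEB2, a regulator of mRNA polyadenylation, was at 45.8, 75.5, 32.1 and 161 CPM in MOLM13, THP1, RS4-11 and KOPN8 and at 2.1 to 8.20 in the other lines (3.86 ± 0.67, adjusted p = 0.191). CCNA1, a cyclin of germ cells and myeloid leukemia, was at 5.64, 45.3, 4.46 and 74.1 CPM and at most 0.052 (9.88 ± 1.60, adjusted p = 0.159). RUNX2, a runt-domain transcription factor, ranged from 23.3 CPM in MOLM13 to 304 in KOPN8, and JURKAT, at 11.9, was the highest of the other lines.

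Other well known targets overlapped between classes. MEF2C, a transcription factor of progenitors, was at 185 to 967 CPM in the MLL-fusion lines, but RAJI reached 191 (2.65 ± 1.30, adjusted p = 0.53). CDK6 was at 386 to 1389 CPM against 1203 in JURKAT and 108 to 233 in the 3 remaining lines (adjusted p = 0.783). BCL2, which blocks apoptosis, was at 80.1 to 310 CPM against 107 in RAJI and 1.53 to 28.3 in K562, JURKAT and P493-6 (adjusted p = 0.520). PROM1, the gene of the stem cell antigen CD133, was at 451 CPM in RS4-11, the MLL-AF4 line, and at most 0.514 in every other line of either class. IGF2BP3 had the only negative difference among the 25 (-1.40, adjusted p = 0.737).

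For the SET1/MLL complexes themselves the median log2 difference was -0.07. All 25 subunit genes were tested and edgeR called none, with 1 at an unadjusted p under 0.05; DESeq2 called that gene, MEN1, lower. DPY30 was at 36.4, 30.1, 36.5 and 43.9 CPM in MOLM13, THP1, RS4-11 and KOPN8 and at 48.8, 47.6, 26.6 and 30.6 in K562, RAJI, JURKAT and P493-6 (-0.07 ± 0.30, adjusted p = 0.957). ASH2L, which DPY30 binds in the complex, was at 51.7 to 195 CPM against 32.4 to 313. MEN1, the gene of menin, a cofactor that MLL fusions need to bind chromatin, was the only subunit without overlap (1 of 25, against 3.27% of all genes). It was at 42.5 to 56.4 CPM in the MLL-fusion lines and 66.7 to 93.0 in the other lines (-0.70 ± 0.22, unadjusted p = 0.012, adjusted p = 0.388). MLL itself, listed under that older symbol, was at 53.2 and 92.0 CPM in MOLM13 and THP1 and at 148 to 223 in the other 6 lines (-0.50 ± 0.42, adjusted p = 0.705), and gene-level counts do not separate the fusion transcript from that of the intact allele. KDM6A, the histone demethylase UTX, was at 0.191 CPM in THP1 and 26.4 to 93.0 in the 7 other lines.

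Genes of fusion partners and elongation factors also had a median near 0 (27 tested, 0.08). edgeR and DESeq2 called none, and 2 had an unadjusted edgeR p under 0.05. These were AFF1, the gene of AF4, at 131 to 563 CPM against 17.1 to 149 (1.62 ± 0.70, adjusted p = 0.479), and CDK9, the elongation kinase, at 85.3, 91.3, 197 and 231 CPM against 65.0 to 88.8 (1.01 ± 0.37, adjusted p = 0.432). ELL, an elongation factor gene, was the only member without overlap (1 of 27, against 4.21% of all genes), at 36.0 to 43.9 CPM against 25.9 to 35.9 (0.34 ± 0.24, adjusted p = 0.653). AFF1 was highest in KOPN8, which is labelled with the ENL fusion, and second in RS4-11, labelled with the AF4 fusion. In RS4-11 gene-level AFF1 counts do not separate the fusion transcript from that of the intact allele. DOT1L was at 139 to 201 CPM against 119 to 184 (0.08 ± 0.22, adjusted p = 0.935). The 11 genes of Polycomb repressive complex 2, which opposes MLL, had a median of -0.34, which was -0.06 without K562 and 0.34 in the B-lineage lines alone. None of the 11 was free of overlap, was called by edgeR or DESeq2, or had an unadjusted edgeR p under 0.05 (0 of 11).

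For 12 single genes the difference of mean log2(CPM + 1) was also tested by an exact 2-sided permutation test over the 8 lines. Its smallest possible p with 70 splits is 0.0286. The genes tied at that p had an adjusted p of 0.0857 (Benjamini-Hochberg over the 12), so 0 of the 12 passed. A gene alone at the smallest p could not have passed, whatever its levels. HOXA9 (difference 4.56), HOXA10 (6.91), FLT3 (7.58) and MEN1 (-0.68) reached that smallest exact p. BCL2 and MEF2C had an exact permutation p of 0.0571 (differences 3.13 and 3.52), and MEIS1 of 0.114 (3.97). MYC (-1.33), MLL (-0.67) and CDK6 (1.16) had 0.229, ASH2L (0.40) had 0.657 and DPY30 (-0.03) had 0.971 in the same exact test.

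Of 26 listed genes of growth factor and cytokine receptors, 22 were tested, with a median log2 difference of 0.95. edgeR called FLT3 alone, which was also the only member without overlap (1 of 22, against 4.21% of all genes), and DESeq2 called FLT3, CSF1R and IL6R higher. CSF1R and IL6R, receptors of the macrophage growth factor and of interleukin-6, were at 23.7 and 124 CPM in MOLM13, 123 and 853 in THP1 and 21.2 and 18.1 in RS4-11, but at 0.157 and 0.201 in KOPN8. IFNGR1, an interferon-gamma receptor chain, was at 49.8 to 140 CPM in the MLL-fusion lines against 29.1 to 67.0 (1.30 ± 0.43, adjusted p = 0.397). CSF2RA, IL3RA and CRLF2 were listed at 0 in all libraries and are not interpreted.

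Feedback genes of the RAS and MAPK pathway, which growth factor receptors such as FLT3 signal through and which are induced by ERK activity, included 4 without overlap among 14 tested, all higher in the MLL-fusion lines (background 4.21%). edgeR called none of the 14 (4 had an unadjusted p under 0.05), and DESeq2 called 3 higher (DUSP4, DUSP6 and SPRY2; background 2.9%). DUSP6, a phosphatase that removes the activating phosphates of ERK, was at 115, 25.7, 18.9 and 230 CPM in MOLM13, THP1, RS4-11 and KOPN8 and at 0.438, 0.182, 2.78 and 0.224 in K562, RAJI, JURKAT and P493-6 (6.73 ± 1.40, adjusted p = 0.296). DUSP4, a related phosphatase, was at 1.69 to 46.3 CPM against at most 0.129 (8.03 ± 1.82, edgeR adjusted p = 0.323). DUSP4 passed the count filter only through the MLL-fusion lines. SPRY2, a Sprouty inhibitor of receptor signalling, was at 98.2, 26.1, 79.0 and 42.8 CPM against 0.131 to 8.63 (3.96 ± 1.06, adjusted p = 0.360). ETV5, an ETS factor downstream of ERK, was at 22.2 to 92.1 CPM, and K562 came close at 20.7 (3.03 ± 1.26, adjusted p = 0.473). The list's median log2 difference was 1.24 and ranged from 0.24 without KOPN8 to 2.81 without K562. Other members did not share the pattern: EGR1 was highest in K562 at 60.5 CPM, and DUSP5 was highest in RAJI at 27.5. This list too was chosen with earlier results of these data known, so its counts beside the background add no support.

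On the lower side, the 15 named genes were led by FKBP4, PLA2G12A and RHPN2. FKBP4, a cochaperone of HSP90, was at 98.7, 52.4, 44.5 and 98.4 CPM in MOLM13, THP1, RS4-11 and KOPN8 and at 424, 602, 349 and 423 in K562, RAJI, JURKAT and P493-6 (-2.62 ± 0.36 SE, edgeR adjusted p = 0.080). The adjusted p of FKBP4 was 0.0114 in limma-voom and 7.5e-09 in DESeq2. In edgeR it was 0.0379 from 3R libraries alone, 0.132 from Y518R libraries alone, 0.131 with lineage as a covariate and 0.354 in the B-lineage lines. PLA2G12A, a secreted phospholipase, was at 8.0 to 16.2 CPM against 42.1 to 123 (-2.93 ± 0.42, adjusted p = 0.098), and RHPN2 at 0.132 to 0.337 against 4.56 to 27.1 (-5.93 ± 0.86, adjusted p = 0.098). TNFRSF8, the activation antigen CD30, was at most 0.207 CPM in the MLL-fusion lines and at 48.3, 17.6 and 51.7 in K562, JURKAT and P493-6, but at 0.392 in RAJI. Most of the other named genes differed by about 1 to 4 on the log2 scale, from IKBKAP (-1.03) to CHST2 (-3.95), with PLS1 at -4.93, and their adjusted p ran from 0.240 to 0.302.

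UTP20, of the small subunit processome, was at 41.2 to 57.0 CPM against 81.5 to 132 (-1.21 ± 0.24, adjusted p = 0.263). URB1, a nucleolar protein of the large subunit pathway, was at 40.7 to 66.7 CPM against 105 to 213 (-1.46 ± 0.30, adjusted p = 0.289). POLR3G, a subunit of RNA polymerase III, was at 5.20 to 17.7 CPM against 42.9 to 93.1 (-2.48 ± 0.48, adjusted p = 0.263). CAD, which starts pyrimidine synthesis, was at 131, 105, 154 and 161 CPM in MOLM13, THP1, RS4-11 and KOPN8 and at 263, 375, 240 and 340 in K562, RAJI, JURKAT and P493-6 (-1.15 ± 0.24, adjusted p = 0.300).

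The list of 30 MYC targets of ribosome biogenesis and metabolism had a log2 difference below 0 for all 30 genes, with a median of -0.66, whereas 49.2% of all tested genes were above 0. No member was called by edgeR, 11 had an unadjusted p under 0.05 (background 4.73%), and DESeq2 called 4 lower (background 1.67%). In 9 of the 30 the classes did not overlap, all lower in the MLL-fusion lines (background 3.27%). These were RRP9, NOLC1, UTP20 and LYAR of the nucleolus, CAD, PPAT, PAICS and GART of nucleotide synthesis, and the mitochondrial scaffold gene PHB. This list was chosen with earlier results of these data known, so its counts and shared direction beside the background add no support. PAICS, an enzyme of purine synthesis, was at 290 to 466 CPM against 513 to 802 (-0.81 ± 0.27, adjusted p = 0.401), and PPAT, the first enzyme of that pathway, at 36.7 to 88.3 against 95.9 to 150 (-1.02 ± 0.33, adjusted p = 0.396). TFRC, the transferrin receptor, had the largest difference of the list (-1.51), with 1460 CPM in K562 and 98.8 in MOLM13. The nucleolar genes NCL and NOP56 had smaller differences, at -0.16 and -0.22.

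MYC was at 556, 158, 328 and 302 CPM in MOLM13, THP1, RS4-11 and KOPN8, at 450, 445 and 353 in K562, RAJI and JURKAT and at 4970 in P493-6, a B cell line built with a regulated MYC gene (-2.21 ± 0.96, adjusted p = 0.484). The MYC target list's median was -0.54 without P493-6 and ranged from -0.77 to -0.52 when each line was left out. Summed over the list, the MLL-fusion lines held 6667 to 9946 CPM and the other lines 9744 (JURKAT) to 14570 (RAJI), so RS4-11 lay above JURKAT. RAJI and P493-6 derive from B cells that carry Epstein-Barr virus, JURKAT is labelled as depending on Myc, and the absence of a fusion cannot be told apart from these properties.

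**Figure D4:**
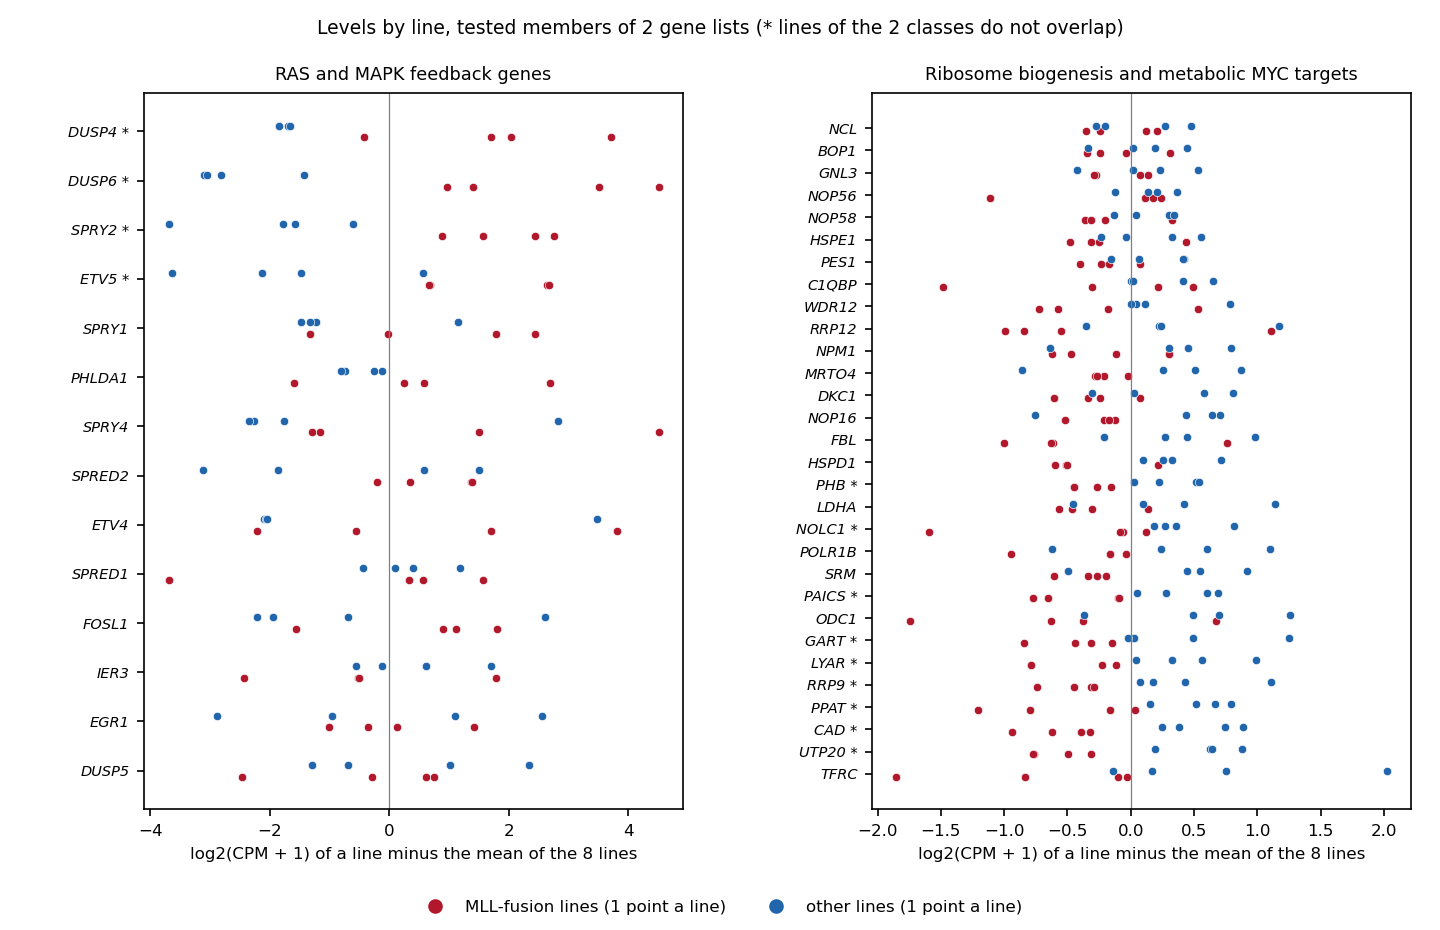
Tested members of the RAS and MAPK feedback list (left) and of the MYC target list (right), each point a line, as log2(CPM + 1) minus the mean of the 8 lines. Asterisks mark genes whose classes do not overlap: 4 of 14 on the left, with the MLL-fusion lines higher, and 9 of 30 on the right, with the MLL-fusion lines lower.

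Lists of cell type markers had large medians that rested on 1 or 2 lines. Monocyte and granulocyte markers (17 of 25 tested) had a median log2 difference of 4.78, and their summed level was 3530 CPM in MOLM13 and 8663 in THP1 but 161 in RS4-11 and 68.4 in KOPN8, within the 42.6 to 349 of the other lines. ELANE, a neutrophil elastase gene, was at 492 CPM in MOLM13 and 1387 in THP1 and at most 0.887 elsewhere. With lineage as a covariate the list's median was 1.01. Precursor B cell genes had a median of 0.97, which was -0.22 without KOPN8. Mature B cell genes had a median of -1.47, which was 0.65 without RAJI, and erythroid and megakaryocyte genes -4.13, which was 0.32 without K562. T cell markers had -5.97, which was -0.28 without JURKAT. The 12 tested MHC class II genes had a median of -0.43, which was 0.77 without RAJI, -1.42 without KOPN8, 1.01 with lineage as a covariate and 2.17 in limma-voom. They summed to 2917 CPM in RS4-11, 4550 in KOPN8, 7704 in RAJI and 3832 in P493-6, and were at 7.92 to 360 in the 4 lines outside the B lineage. edgeR called none of these members. DESeq2 called 7 monocyte and granulocyte markers, the precursor B gene VPREB1 and the megakaryocyte gene GP9 higher (background 2.9%), and the mature B gene MS4A1 and TAL1, which stands in both the T cell and the erythroid list, lower (background 1.67%). Members not tested were low in nearly all lines, so these medians describe the genes that passed the count filter.

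Lysosomal genes had a median log2 difference of 0.93 over 25 tested, 23 of them above 0. edgeR and DESeq2 called none, and 5 had an unadjusted edgeR p under 0.05. CTSD, the protease cathepsin D, was at 134 to 407 CPM in the MLL-fusion lines against 65.1 to 116 (1.31 ± 0.38, adjusted p = 0.365). THP1 was the highest line for CTSD, and the list's median was 0.49 without it. Interferon-stimulated genes had a median of 0.72 over 26 tested, which was 0.11 without THP1. edgeR called none, with 2 at an unadjusted p under 0.05, and DESeq2 called IFI35 higher (adjusted p = 0.0029). IFI35 was the only one without overlap (1 of 26, against 4.21% of all genes), at 13.5 to 52.3 CPM against 3.86 to 9.08 (2.14 ± 0.55, adjusted p = 0.350).

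**Figure D5:**
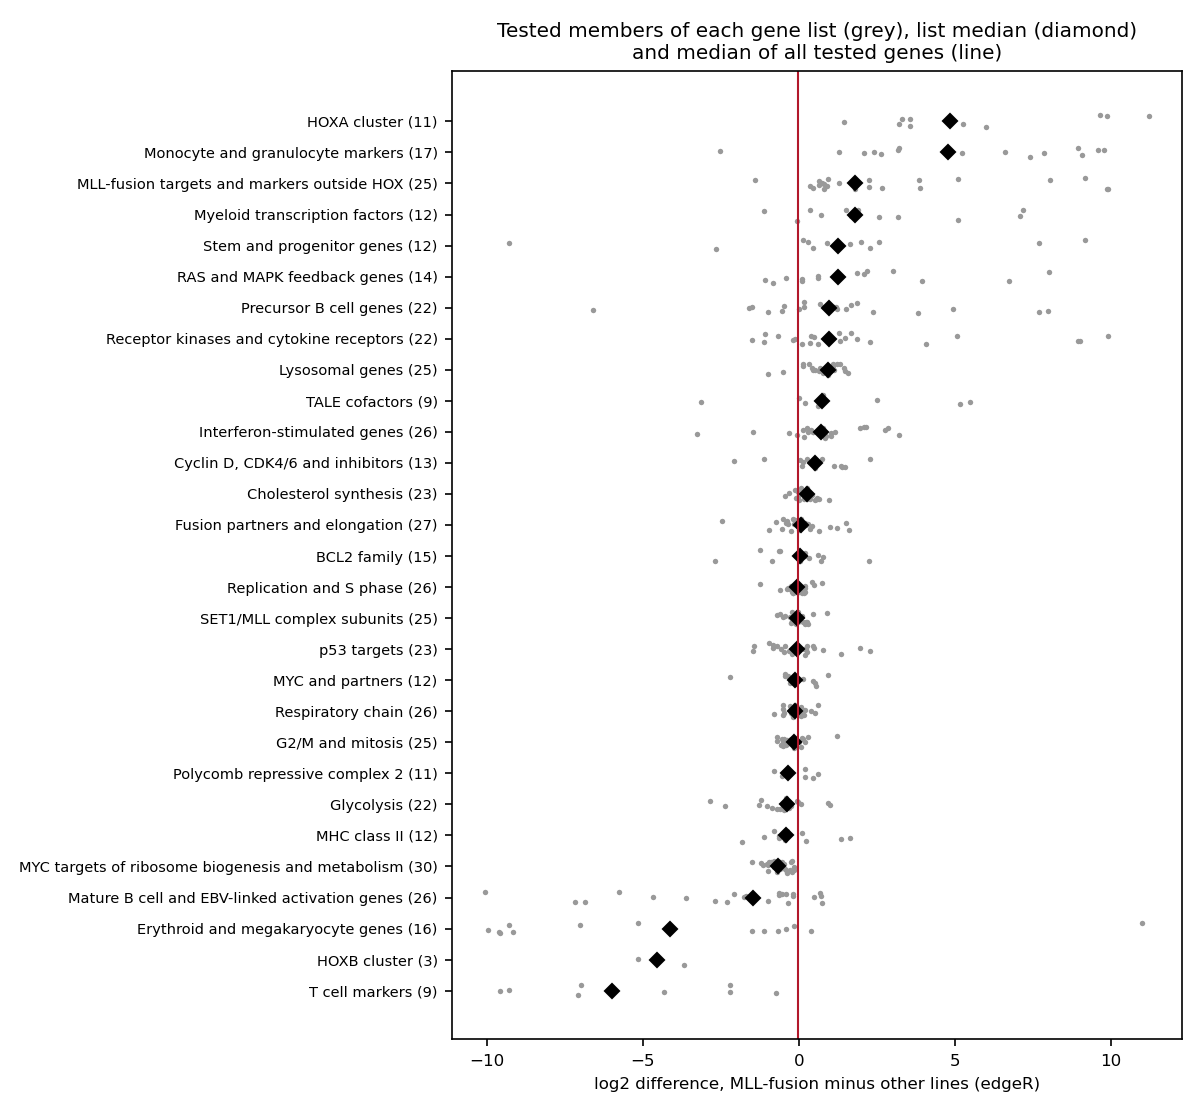
Log2 difference (x axis, MLL-fusion minus other lines) of each tested member of the 29 gene lists (grey points), with the list median (diamond) and the median of all tested genes (vertical line at -0.01). The number of tested members stands in brackets; the HOXA cluster has the highest median (4.83) and T cell markers the lowest (-5.97).

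Lists of proliferation, survival and core metabolism had medians from -0.39 to 0.504. Replication and S phase genes (26 tested) had a median of -0.05 and G2/M and mitosis genes (25) of -0.17, with none called by edgeR or DESeq2 and none without overlap. The summed mitotic level ranged from 1759 CPM in MOLM13 to 5515 in KOPN8 and from 1611 in P493-6 to 5759 in JURKAT, so the lines of each class spanned the same range. Respiratory chain genes (26) had a median of -0.12, glycolysis genes (22) of -0.39 and cholesterol synthesis genes (23) of 0.27. Cyclin D genes, CDK4, CDK6 and their inhibitors had a median of 0.504 over 13 tested, the BCL2 family of 0.04 over 15 and p53 targets of -0.07 over 23, and no gene of these lists was called by edgeR or DESeq2 or was free of overlap.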

How the data were processed

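Counts of reads per gene symbol (23230 symbols in each of 16 libraries) were used as deposited by the authors; per the submitters' processing notes the tools were CASAVA 1.8.4, TopHat2 2.1.1 and HTSeq 0.6.1, with DESeq and DESeq2 also named, and the builds GRCh38 and hg19 both appear. No strand setting is stated in the sources used, so reads of overlapping or antisense genes cannot be told apart. Entries that name no gene were left out of library sizes.

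The 2 libraries of a line were summed, which balances the peptides, and tested with edgeR 4.0.16 (R 4.3.3, TMM scaling, filterByExpr with a minimum count of 10, robust quasi-likelihood fit, class as the only term, Benjamini-Hochberg threshold 0.05). DESeq2 1.42.0 and limma 3.58.1 (voom, peptide as covariate, line as a correlated block, correlation 0.94) were alternatives, as were another scaling, no filter, single peptides, lineage as a covariate, B-lineage lines and leaving out each line. SE is the absolute log2 difference over the square root of F. The fit was checked on simulated data. The labels do not say whether the 2 libraries of a line were separate cultures, and p-values rest on the spread among the 8 lines, part of which may be technical. Counting intervals cover counting error only.

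The named genes were, among tested genes with a mean of at least 10 CPM in the higher class and no overlap, the 15 with the lowest p in each direction, up to 4 members of each of 29 lists and 12 single genes; IGF2BP3, KDM6A, HOXA13 and other members given as extremes were picked after their values were seen. The members and lists were chosen with earlier results of these data known. Transcripts that show a donor's sex are not named.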

Additional observations from a re-analysis of the deposited data

Results flagged for a closer look

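Within each class of 4 lines, a line was marked when its gap to the nearest other line was large against the range of the class (Dixon's rule on log2(CPM + 1)), and the same rule was applied to the 8 libraries of a class for depth and read assignment. Of 73 groups looked at, 7 gave a mark, and chance alone marks about 1 in 20.

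KOPN8 was the outlying MLL-fusion line for NLRP3 (28.6 CPM, the lowest) and for HRH2 (33.4 CPM, the highest), both called genes. THP1 stood apart for GSN at 487 CPM. Among the other lines P493-6 stood apart for PLS1 at 2.32 CPM, the lowest, and for MYC at 4970 CPM, the highest. Of the libraries, RAJI 3R was marked for its share of reads assigned to no gene (44.7%, the highest) and for reads shared by several genes (1.37%, the lowest). Without that library edgeR called 7 genes higher and 1 lower, and all 6 called genes were among the 7.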

How the results depend on the processing

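The count of genes higher in the MLL-fusion lines (6) was 387 with DESeq2, 15 with limma-voom, 2 from Y518R libraries and 0 in B-lineage lines, and 1 to 10 with a line left out (1 without JURKAT, 10 without P493-6). The count of lower genes (0) was 222 with DESeq2, 4 with limma-voom, and 1 each from 3R libraries, without robust estimation, with lineage as a covariate and without the RAJI 3R library; it was 0 to 1 with a line left out (1 without RAJI). All 6 called genes were also called by DESeq2 and 3 of them by limma-voom. No single gene passed the permutation test under any alternative, where 35 splits with a line left out allow no smaller p. Near 0, the difference of DPY30 (-0.183 to 0.102 with a line left out) changed sign without THP1, K562 or RAJI, and that of ASH2L (-0.038 to 1.04) without P493-6. For the 30 named genes no log2 difference changed sign under any alternative fitted. Their selection for classes without overlap made this nearly certain, so it adds no support. Of 406 list medians under alternatives, most of them chosen after seeing the data (lines or libraries left out), 377 moved by less than the spread between lines. Another scaling moved the median of all genes from -0.01 to -0.02. No paired analysis was possible because the labels carry no replicate numbers and tie no line of a class to a line of the other. With 4 lines a class and a common coefficient of variation of 0.946 between lines, a gene that missed the threshold is not shown to be unchanged. Genes that did not reach about 10 counts in at least 4 lines were not tested, even where 1 line was high.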

Other observations

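On the second principal component of log2 CPM (21.5% of the variance) the 4 MLL-fusion lines lay at 59.4 to 91.0. K562 lay at -192, far from JURKAT (-55.3), RAJI (-43.1) and P493-6 (-13.5), so this axis also sets K562 apart. The component was picked after its values were seen, so its share of the variance cannot be read as that of the fusion. JURKAT and P493-6 had a mean correlation of 0.881 and 0.889 with the MLL-fusion lines, against 0.880 and 0.887 with their own class. The first component (25.1%) held MOLM13 (126), THP1 (132) and K562 (91.4) on one side and the 5 lymphoid lines (-151 to -13.9) on the other. CD99 was listed at 0 counts in all libraries, as were CSF2RA, IL3RA and CRLF2.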
